A study of Mus musculus with 10 samples.

Results

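Mouse embryonic fibroblasts transfected with siRNA against Cirbp were compared directly with fibroblasts transfected with siRNA against Rbm3. The comparison rests on 4 of the 10 libraries of the series, 2 siCirbp and 2 siRbm3, all from cells kept at 37 °C in DMEM with serum. The series concerns the influence of both proteins on alternative polyadenylation. All 4 libraries come from siRNA-treated cells, so neither side of the comparison is an untreated control. A gene's level is its FPKM (fragments per kilobase of transcript, scaled to mapped fragments), summed over its listed transcripts. Of 22552 genes, 10836 had a mean of at least 1 FPKM over these 4 libraries, and the 10711 with a transcript of at least 200 nt were tested.

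The other RNA-seq libraries are 2 of mock-transfected cells at 37 °C and 2 of mock-transfected cells at 32 °C, and they are used here only to place the levels. The siRNA cells have no listed control siRNA group. The labels give the libraries numbers 1 and 2 and do not say whether these are separate cultures, separate siRNA sequences or repeats of 1 culture, so the p-values reflect the library-to-library spread alone. The remaining 2 samples are PAR-CLIP libraries, in which RNA crosslinked to a FLAG-tagged protein is recovered, 1 for Cirbp and 1 for Rbm3, each from fibroblasts that stably expressed the tagged protein.

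Cirbp and Rbm3 are small, closely related RNA-binding proteins with 1 RNA recognition motif followed by a glycine-rich region, and both are induced by mild cooling. They bind mRNA and have been linked to translation, mRNA stability and the choice of polyadenylation site, and Cirbp also to the amplitude of the circadian clock. Fibroblasts in culture make collagen matrix and divide, so genes of the matrix and of the cell cycle are well measured in them.

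Of the 10 fibroblast markers examined, 8 were at 1 FPKM or more, while Thy1 was listed at 0 in all 4 libraries and Lum was below 0.1. So were 2 of 8 macrophage, 1 of 7 epithelial, 3 of 7 endothelial, 3 of 7 muscle, 2 of 6 adipocyte and 2 of 5 neural markers at 1 FPKM or more. The muscle marker Tnnt2 was at 50.8 to 66.2 FPKM and the neural marker Sox2 at 30.8 to 38.9 FPKM. The summed fibroblast markers were 3367 and 2736 FPKM in siCirbp and 4326 and 6662 FPKM in siRbm3. Mapped fragments were 26.9 and 28.1 M for siCirbp and 27.1 and 25.1 M for siRbm3.

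Replicate 2 of siRbm3 stood apart from the other 3 libraries. The median absolute difference over the tested genes, on the log2(FPKM + 1) scale, was 0.313 between the 2 siRbm3 libraries and 0.261 between the 2 siCirbp libraries. It was smaller across the groups for replicate 1 of siRbm3, at 0.212 from siCirbp replicate 1 and 0.221 from siCirbp replicate 2. Replicate 2 of siRbm3 lay 0.331 and 0.405 from them. From the 2 mock libraries at 37 °C, siRbm3 replicate 1 lay 0.214 and 0.191 and siRbm3 replicate 2 lay 0.384 and 0.305. For siCirbp these distances were 0.303 and 0.274 for replicate 1 and 0.317 and 0.303 for replicate 2. Replicate 1 of siRbm3 was thus about as near to mock at 37 °C as to siCirbp. The 2 mock libraries at 37 °C differed by 0.0878 and the 2 at 32 °C by 0.106. In 43.3% of tested genes the library farthest from the other 3 was siRbm3 replicate 2, against 12.1% for siRbm3 replicate 1. In 5139 genes (48.0%), siRbm3 replicate 1 was nearer to both siCirbp libraries than to its own replicate. The results are therefore given against each siRbm3 library as well as against both.

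**Figure D1:**
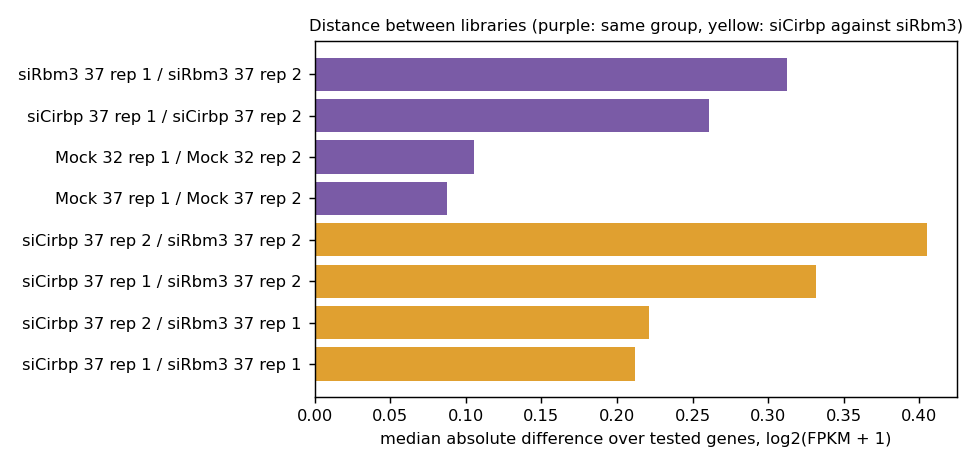
Median absolute difference between pairs of libraries over the 10711 tested genes, in log2(FPKM + 1), for pairs within a group (purple) and pairs of 1 siCirbp and 1 siRbm3 library (yellow). The bars for siRbm3 replicate 1 against either siCirbp library, 0.212 and 0.221, are shorter than the bar for the 2 siRbm3 libraries, 0.313.

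The targeted genes differed in opposite directions and without overlap between the groups. Summed over transcripts, however, siRbm3 replicate 1 did not show a lower Rbm3 level than mock. Cirbp (mm9 chr10:79630586-79634398, 1 transcript) was at 10.8 and 6.07 FPKM in the siCirbp libraries and at 13.8 and 23.8 FPKM in the siRbm3 libraries. In mock cells it was at 15.9 and 17.1 FPKM at 37 °C and at 34.5 and 37.2 FPKM at 32 °C. Both siCirbp libraries were thus below mock at 37 °C, whereas the siRbm3 libraries lay on either side of it. The log2 difference, siCirbp minus siRbm3, was -1.07 with an SE of 0.36 (95% interval -1.92 to -0.22).

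Rbm3 was at 5.54 and 7.55 FPKM in siCirbp, at 3.05 and 1.16 FPKM in siRbm3, at 1.85 and 2.21 FPKM in mock at 37 °C and at 3.64 and 3.20 FPKM in mock at 32 °C. In this sum the library labelled siRbm3 replicate 1 was above both mock libraries at 37 °C, which goes against its label, and replicate 2 was below both. The transcripts shorter than 2900 nt were together at 0.272 and 0.128 FPKM in siRbm3 and at 0.402 and 0.522 FPKM in mock at 37 °C. For these, all under 1 FPKM, both siRbm3 libraries were below both mock libraries. The siCirbp libraries held the highest Rbm3 levels of the 8. The log2 difference was 1.34 with an SE of 0.37 (95% interval 0.47 to 2.20). Most Rbm3 FPKM in the siRNA libraries came from the 2900-nt transcript, 83.6% and 91.0% in siCirbp and 91.1% and 88.9% in siRbm3. It also held 78.3% and 76.3% in mock cells at 37 °C, but 16.1% and 19.8% in mock cells at 32 °C. Neither gene passed the limma test across all genes, with an adjusted p of 0.810 for each (Benjamini-Hochberg, threshold 0.05).

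**Figure D2:**
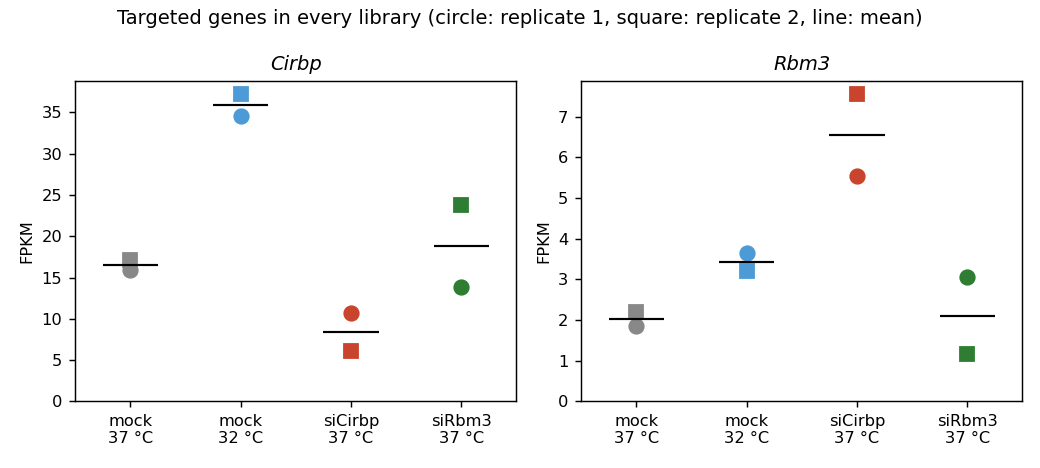
FPKM of Cirbp (left) and Rbm3 (right) in each of the 8 RNA-seq libraries, grouped by treatment, with circles for replicate 1, squares for replicate 2 and a line at the mean of 2. Cirbp is lowest in the 2 siCirbp libraries, 10.8 and 6.07 FPKM, and Rbm3 in siRbm3 replicate 1 (3.05 FPKM) lies above both mock libraries at 37 °C.

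Over all genes, limma called 0 of 10711 (0%) at an adjusted p of 0.05, and the lowest adjusted p was 0.810. At an unadjusted p under 0.05 there were 630 genes (5.88%), 436 higher in siCirbp and 194 lower. The 95% interval of a gene's log2 difference reached a median of 0.65 to either side, against a median absolute difference of 0.23. With 2 libraries a group an exact permutation test of 1 gene cannot go below p = 0.333. Gene results are therefore given as levels in each library, and as counts of genes whose groups did not overlap. Both siCirbp libraries were above both siRbm3 libraries in 2241 genes (20.9%) and below both in 1673 (15.6%). A difference of at least 2-fold without overlap was found in 189 genes higher in siCirbp (1.76%) and 52 lower (0.485%). Between single libraries, 393 genes differed by at least 2-fold inside siCirbp and 716 inside siRbm3. Across the groups the number was 165 and 251 for siRbm3 replicate 1 against the 2 siCirbp libraries, and 959 and 1470 for siRbm3 replicate 2. The pairs with siRbm3 replicate 1 were thus below both within-group numbers and those with replicate 2 above both. Without siRbm3 replicate 2 the counts of 189 and 52 became 45 and 15, and without siRbm3 replicate 1 they became 725 and 313.

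Among the 12 genes with the widest gap between the groups on the higher side, Ccne1 and Ccne2 belong to the G1/S list used further on and Cenpe and Cenpf to the G2/M list, and the other 8 belong to no list. The gap is the lowest siCirbp library minus the highest siRbm3 library, in log2(FPKM + 1), taken over genes whose higher group averaged 5 FPKM or more. For the 12 widest it ran from 0.95 to 1.47. Hmgn5, which encodes a nucleosome-binding protein, was at 32.8 and 28.4 FPKM in siCirbp and at 9.63 and 2.72 FPKM in siRbm3, with a log2 difference of 2.32 (SE 0.46). Mock cells at 37 °C held 12.5 and 11.5 FPKM of it, between the groups.

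Cyclins E1 and E2 drive entry into S phase. Ccne1 was at 11.4 and 15.2 FPKM in siCirbp and at 5.26 and 4.62 FPKM in siRbm3, and the siRbm3 libraries were near the 3.92 and 4.71 FPKM of mock at 37 °C. Ccne2 was at 8.09 and 10.5 FPKM in siCirbp against 3.24 and 1.37 FPKM in siRbm3. Pole2, a subunit of DNA polymerase epsilon, was at 6.38 and 7.56 FPKM against 2.76 and 2.52 FPKM, and here the 2 siRbm3 libraries differed little. Hells, a chromatin remodeller of dividing cells, was at 26.0 and 48.5 FPKM against 11.9 and 3.40 FPKM.

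Smc4, a core subunit of condensin, was at 98.9 and 93.6 FPKM in siCirbp and at 44.2 and 22.7 FPKM in siRbm3. Cenpe, the kinetochore kinesin, was at 22.5 and 23.5 FPKM against 9.04 and 3.93 FPKM, and Cenpf, a large kinetochore protein, at 19.3 and 18.0 FPKM against 8.37 and 3.16 FPKM. For all 3 the siCirbp libraries were close to each other and siRbm3 replicate 2 was the lowest. Kif20b, a kinesin of cell division, was at 16.2 and 19.8 FPKM against 6.33 and 2.36 FPKM. Haus3, a subunit of the augmin complex that nucleates spindle microtubules, was at 24.1 and 24.9 FPKM against 11.1 and 4.38 FPKM. Esf1, a nucleolar protein of ribosomal RNA processing, was at 24.1 and 25.9 FPKM against 10.3 and 4.55 FPKM, and 2610039C10Rik at 8.52 and 9.51 FPKM against 3.93 and 3.46 FPKM. In all 12 genes both siCirbp libraries were above both mock libraries at 37 °C, and in 7 both siRbm3 libraries were below them. Over all 10711 tested genes these counts were 4216 and 1372, and picking genes by their gap favours such positions.

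On the lower side the 12 widest gaps ran from 0.81 to 1.24. Type I collagen chain Col1a1 was at 457 and 545 FPKM in siCirbp and at 1034 and 1113 FPKM in siRbm3, with 675 and 775 FPKM in mock at 37 °C. The log2 difference was -1.10 (SE 0.25), and the 2 siRbm3 libraries were alike for this gene. Col12a1, a fibril-associated collagen, was at 28.2 and 27.0 FPKM in siCirbp and at 64.5 and 93.6 FPKM in siRbm3, and here the mock level of 104 and 92.3 FPKM was at or above that of siRbm3. Msln, the surface glycoprotein mesothelin, was at 13.8 and 10.3 FPKM against 41.5 and 33.7 FPKM, and Psca, a GPI-anchored surface protein, at 1.95 and 1.65 FPKM against 5.70 and 5.96 FPKM.

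Lgals3 (galectin-3) was at 7.95 and 7.65 FPKM in siCirbp, at 17.5 FPKM in siRbm3 replicate 1 and at 80.9 FPKM in replicate 2. Its mock level at 37 °C was 83.4 and 85.4 FPKM, so 3 of the 4 siRNA libraries were far below mock. Cdsn, the corneodesmosin of cornified epithelium, was at 8.30 and 5.81 FPKM in siCirbp and at 21.0 and 74.4 FPKM in siRbm3, around a mock level of 31.8 and 36.2 FPKM. Of the 7 epithelial markers examined, 6 (Epcam, Cdh1, Krt8, Krt18, Krt5 and Krt14) averaged below 0.1 FPKM. Krt19 was at 1.25 and 1.25 FPKM in siCirbp and at 2.35 and 7.55 FPKM in siRbm3.

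Cdon, a cell-surface co-receptor of hedgehog signalling, was at 7.17 and 5.83 FPKM in siCirbp and at 13.5 and 15.3 FPKM in siRbm3, the latter near mock at 13.8 and 13.3 FPKM. Mgat3, a glycosyltransferase of N-glycans, was at 9.38 and 9.32 FPKM against 17.3 and 23.1 FPKM. Synpo, the actin-associated synaptopodin, was at 12.5 and 8.80 FPKM against 22.7 and 22.7 FPKM. Prune2 was at 4.66 and 7.53 FPKM against 16.5 and 15.1 FPKM. Usmg5, a small protein of the ATP synthase complex, was at 1.95 and 3.99 FPKM against 8.85 and 8.64 FPKM, and Rpl19, of the large ribosomal subunit, at 7.03 and 5.77 FPKM against 13.6 and 17.7 FPKM. Values of ribosomal protein genes and of other genes with many processed copies are uncertain, since the handling of reads with several best positions is not stated, and Gapdh was listed at 0.325 to 0.400 FPKM in these 4 libraries. In all 12 lower genes both siCirbp libraries were below both mock libraries at 37 °C, and in 6 both siRbm3 libraries were above them. Over all 10711 tested genes these counts were 2317 and 4063, and the pick by gap favours such positions here too. In 21 of the 24 genes siRbm3 replicate 1 lay between siCirbp and siRbm3 replicate 2. Since these groups do not overlap, 1 of the 2 siRbm3 libraries lies between in every gene, and any difference was counted, however small. The share over all genes without overlap was not determined.

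**Figure D3:**
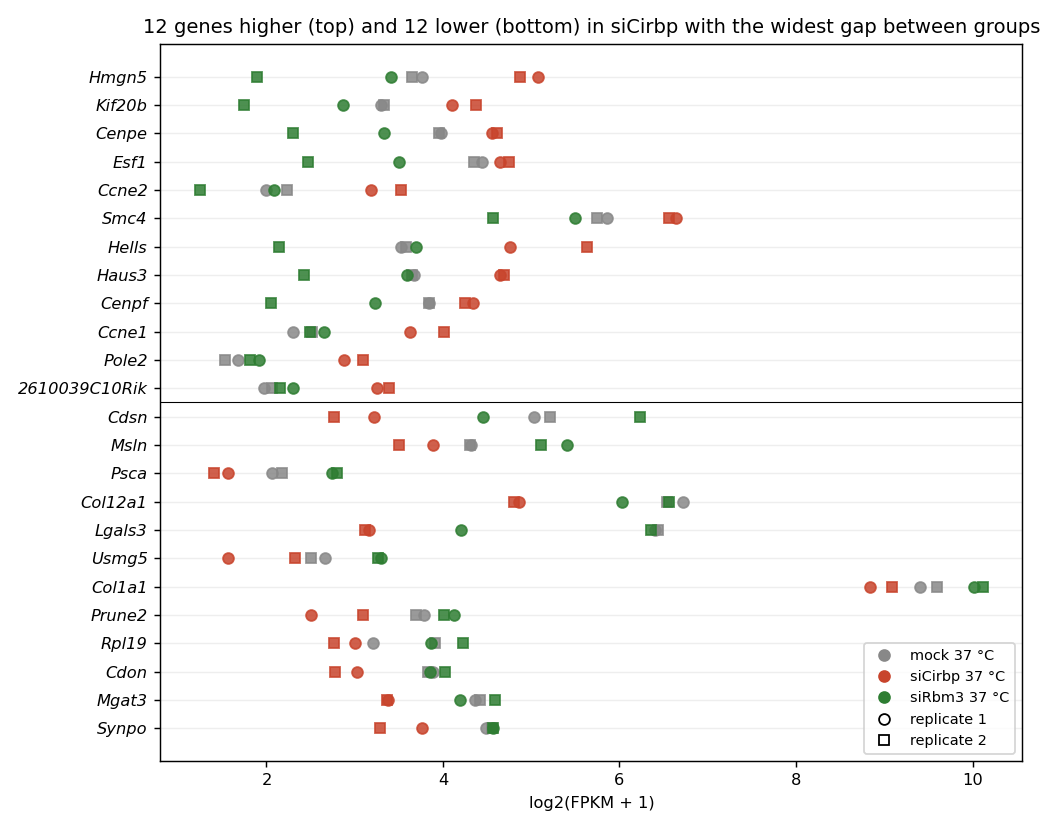
Level of the 12 genes with the widest gap on the higher side (above the line) and the 12 on the lower side (below it) in log2(FPKM + 1), for mock at 37 °C, siCirbp and siRbm3, with circles for replicate 1 and squares for replicate 2. The siCirbp points lie beyond the mock points in all 24 genes, and the siRbm3 points are spread most for Cdsn, Lgals3, Hells and Hmgn5.

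The 25 gene lists were described by their counts beside those of all genes, among which 20.9% were higher and 15.6% lower without overlap. Counts with 1 library left out are easier to reach. Without siRbm3 replicate 1, 3853 of the 10711 tested genes were above and 4470 below. Without siRbm3 replicate 2, 3762 were above and 2623 below. No member of any list passed the limma test. Members named beyond the 3 smallest unadjusted p-values of each list were picked for their role after their values were seen.

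Genes of the G1/S transition and DNA replication were higher in siCirbp almost throughout. Of 32 measured members, 30 were higher without overlap and 0 lower, and the median log2 difference was 1.00 against -0.0033 over all genes. The median was 0.74 against siRbm3 replicate 1 alone and 1.23 against replicate 2 alone. The number of members above was 32 without siRbm3 replicate 2 and 30 without siRbm3 replicate 1. The list's median level was 15.6 and 26.5 FPKM in siCirbp, 12.1 and 9.82 FPKM in siRbm3 and 6.84 and 7.38 FPKM in mock at 37 °C. Both siCirbp libraries were above both mock libraries in all 32 members, and both siRbm3 libraries were above both mock libraries in 22. Over all 10711 tested genes these counts were 4216 and 4063.

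The MCM proteins form the replicative helicase. Mcm5 was at 42.4 and 67.0 FPKM in siCirbp and at 23.3 and 14.7 FPKM in siRbm3, over a mock level of 8.48 and 10.8 FPKM, with a log2 difference of 1.48 (SE 0.32). Mcm3 was at 50.7 and 71.5 FPKM against 28.7 and 15.5 FPKM. The order was the same for both, with siCirbp replicate 2 highest and siRbm3 replicate 2 nearest to mock. Rrm1 and Rrm2, which encode the subunits of ribonucleotide reductase, were at 69.9 and 90.6 FPKM against 50.1 and 37.9 FPKM, and at 13.2 and 26.3 FPKM against 7.46 and 4.56 FPKM. Pola1, the catalytic subunit of DNA polymerase alpha, was at 11.6 and 21.9 FPKM against 8.72 and 1.80 FPKM. The 2 members whose groups overlapped were E2f1, a transcription factor of the transition, at 28.5 and 28.2 FPKM against 20.9 and 28.7 FPKM, and Cdt1, a licensing factor, at 31.0 and 53.2 FPKM against 26.0 and 36.0 FPKM.

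Genes of G2 and mitosis showed the same direction at a smaller size. Of 28 measured members, 26 were higher in siCirbp without overlap and 0 lower, with a median log2 difference of 0.72. It was 0.53 against siRbm3 replicate 1 alone and 0.78 against replicate 2 alone, and 27 members were above without siRbm3 replicate 2. The median level was 32.2 and 36.8 FPKM in siCirbp, 23.9 and 19.04 FPKM in siRbm3 and 15.8 and 16.7 FPKM in mock at 37 °C. Both siCirbp libraries exceeded mock in 27 members and both siRbm3 libraries in 17, while 3 members were below mock in both siRbm3 libraries. Over all 10711 tested genes these counts were 4216, 4063 and 1372.

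Birc5, the survivin subunit of the chromosomal passenger complex, was at 108 and 109 FPKM in siCirbp and at 56.3 and 59.5 FPKM in siRbm3, with 36.4 and 40.0 FPKM in mock. The libraries of each group were close here, and the log2 difference was 0.89. Cdk1, the mitotic kinase, was at 58.7 and 56.7 FPKM against 33.6 and 35.3 FPKM, and its partner Ccna2 at 102 and 106 FPKM against 61.7 and 53.3 FPKM. For these 3 genes the 2 siRbm3 libraries were close. They were farther apart for Ncapg, a condensin subunit, at 36.3 and 39.8 FPKM against 21.7 and 9.61 FPKM, and for Top2a, which untangles sister chromatids, at 174 and 167 FPKM against 113 and 54.6 FPKM. The members whose groups overlapped were Ccnb2, at 25.1 and 14.9 FPKM against 16.4 and 18.3 FPKM, and Cdc20, at 28.9 and 33.2 FPKM against 23.8 and 29.7 FPKM.

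Promoters of both lists were read because their members differed together. They are RefSeq promoters on GRCm38.p6, 300 bases each, from 250 before to 50 after the start, and were searched on both strands for the E2F letters GGCGGGAA, the CCAAT box CCAAT and the cell cycle homology region TTTGAA, none of which contains another. E2F factors act at G1/S genes, and the CCAAT box and cell cycle homology region are known from promoters of G2 and mitotic genes. Of 32 G1/S genes 25 matched a promoter and of 28 G2/M genes 22. The lists are read against the 7703 tested genes with a promoter, counted as genes in the same way, and the share of all 32841 promoters is given beside it. The E2F letters were in 5 of 25 G1/S genes (20.0%) and 0 of 22 G2/M genes, against 5.01% of tested genes and 2.19% of all promoters. The homology region was in 16 of 22 G2/M genes (72.7%) and 4 of 25 G1/S genes (16.0%), against 13.7% of tested genes and 17.9% of all promoters. The CCAAT box was in 19 of 22 G2/M genes (86.4%) and 17 of 25 G1/S genes (68.0%), against 43.9% of tested genes and 37.4% of all promoters. These shares describe the lists and do not depend on the siRNA, and a match is no evidence of binding. The sequences that follow are the G1/S promoters with the E2F letters and the G2/M promoters with both other motifs that belong to the members with the smallest unadjusted p, each 5′ to 3′ along its gene, with every match in capitals. Mcm3 is on the minus strand at chr1:20820263-20820562, Rrm1 on the plus strand at chr7:102441445-102441744, Cenpf on the minus strand at chr1:189688037-189688336 and Ncapg on the plus strand at chr5:45669675-45669974.
Mcm3: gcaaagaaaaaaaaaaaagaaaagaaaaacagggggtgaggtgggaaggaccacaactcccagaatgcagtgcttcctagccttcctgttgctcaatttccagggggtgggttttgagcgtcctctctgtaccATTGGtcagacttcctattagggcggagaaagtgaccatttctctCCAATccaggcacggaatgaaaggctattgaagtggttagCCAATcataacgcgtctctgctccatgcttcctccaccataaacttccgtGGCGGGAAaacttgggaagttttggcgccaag
Rrm1: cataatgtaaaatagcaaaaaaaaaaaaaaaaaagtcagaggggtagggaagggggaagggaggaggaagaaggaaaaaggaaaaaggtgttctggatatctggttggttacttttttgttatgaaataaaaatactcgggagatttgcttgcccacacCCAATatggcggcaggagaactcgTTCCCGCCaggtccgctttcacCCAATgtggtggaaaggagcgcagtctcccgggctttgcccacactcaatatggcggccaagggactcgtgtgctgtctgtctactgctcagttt
Cenpf: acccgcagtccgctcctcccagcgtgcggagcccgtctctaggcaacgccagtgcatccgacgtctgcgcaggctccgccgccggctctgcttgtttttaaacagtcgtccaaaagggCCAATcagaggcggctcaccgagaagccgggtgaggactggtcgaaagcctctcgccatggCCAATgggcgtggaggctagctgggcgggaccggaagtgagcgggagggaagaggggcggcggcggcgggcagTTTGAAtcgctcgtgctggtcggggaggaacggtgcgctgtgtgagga
Ncapg: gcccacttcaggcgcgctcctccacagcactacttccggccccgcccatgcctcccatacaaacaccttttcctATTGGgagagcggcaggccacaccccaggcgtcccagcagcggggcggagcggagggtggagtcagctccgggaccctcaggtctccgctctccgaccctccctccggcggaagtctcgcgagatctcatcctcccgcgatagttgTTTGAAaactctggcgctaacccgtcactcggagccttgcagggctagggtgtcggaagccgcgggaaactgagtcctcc

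Mcm3 and Rrm1 each hold 1 match to the E2F letters, next to 3 and 2 CCAAT boxes. Cenpf holds 2 CCAAT boxes and 1 homology region, and Ncapg 1 of each.

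Collagen and matrix genes were lower in siCirbp. Of 24 measured members 14 were lower without overlap and 1 higher, with a median log2 difference of -0.57. The median was -0.31 against siRbm3 replicate 1 alone and -0.81 against replicate 2 alone, and without siRbm3 replicate 2 the count below was 15 of 24. The median level was 63.6 and 64.0 FPKM in siCirbp, 86.4 and 122 FPKM in siRbm3 and 107 and 104 FPKM in mock at 37 °C. Both siCirbp libraries were below mock in 18 members, and both siRbm3 libraries were above mock in 6 and below in 3. Over all 10711 tested genes these counts were 2317, 4063 and 1372. Fn1, the matrix glycoprotein fibronectin, was at 468 and 286 FPKM in siCirbp and at 764 and 895 FPKM in siRbm3, with a mock level of 736 and 741 FPKM and a log2 difference of -1.17 (SE 0.31). The 1 member higher was Postn, the matricellular protein periostin, at 17.6 and 32.4 FPKM against 13.0 and 11.2 FPKM. The summed fibroblast markers, which share Col1a1, Col1a2, Fn1 and Dcn with this list, were 3367 and 2736 FPKM in siCirbp against 4326 and 6662 FPKM in siRbm3, and their part in the result was not tested. Among the markers outside the list, Vim, the largest, overlapped between the groups at 1939 and 1337 FPKM against 1838 and 3924 FPKM, and so did Fbln2 at 5.11 and 2.05 FPKM against 3.73 and 9.95 FPKM. Pdgfrb was at 60.2 and 56.8 FPKM against 72.7 and 76.9 FPKM, and Pdgfra went the other way at 11.1 and 12.03 FPKM against 10.0 and 7.62 FPKM. Fewer cells of a type and less RNA per cell cannot be told apart in bulk RNA.

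Genes of glycolysis and the hypoxia response were lower in siCirbp on average, and the groups overlapped in most members. All 27 measured members had a log2 difference below 0, with a median of -0.63, yet only 8 were lower without overlap. Without siRbm3 replicate 1, 24 members were below, and without siRbm3 replicate 2, 8 were, against 4470 and 2623 of all 10711 tested genes. The siCirbp libraries also differed, with a median level of 93.4 FPKM in replicate 1 and 65.7 FPKM in replicate 2, against 91.0 and 141 FPKM in siRbm3 and 109 and 108 FPKM in mock at 37 °C. P4ha2, a collagen prolyl hydroxylase, was at 84.0 and 87.6 FPKM in siCirbp and at 149 and 290 FPKM in siRbm3. Ero1l, an oxidase of the endoplasmic reticulum, was at 47.7 and 19.2 FPKM against 51.5 and 122 FPKM, and Bnip3, a mitophagy receptor, at 28.1 and 20.0 FPKM against 34.6 and 49.1 FPKM. For Ero1l siRbm3 replicate 1 was close to siCirbp replicate 1.

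Targets of SRF and YAP, transcription regulators that respond to actin and tension, were lower without overlap in 9 of 20 and higher in 0, with a median log2 difference of -0.31. Cyr61 was at 97.5 and 103 FPKM in siCirbp and at 121 and 225 FPKM in siRbm3, all below the 358 and 435 FPKM of mock. Ankrd1 was at 15.6 and 20.0 FPKM against 22.9 and 27.1 FPKM, and Cnn2, a calponin, at 77.1 and 113 FPKM against 118 and 169 FPKM. The endoplasmic reticulum and integrated stress list had 9 of 24 lower and 3 higher, with a median of -0.26 that was -0.04 against siRbm3 replicate 1 and -0.56 against replicate 2. Trib3 was at 17.5 and 14.2 FPKM against 23.3 and 54.0 FPKM, and Chac1, a glutathione-degrading enzyme, at 6.95 and 11.7 FPKM against 15.9 and 26.8 FPKM. The insulin-like growth factor list had 5 of 14 lower and 2 higher, among them Irs2, an adaptor of the receptor, at 7.21 and 7.03 FPKM against 11.4 and 17.8 FPKM.

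RNA-processing lists leaned the other way. Of 18 SR proteins and CLK kinases, which act in splicing, 8 were higher in siCirbp without overlap and 0 lower, with a median log2 difference of 0.48. It was 0.19 against siRbm3 replicate 1 and 0.82 against replicate 2. The 8 were Srsf1, Srsf2, Srsf3, Srsf6, Srsf7, Srsf10, Tra2a and Tra2b. Srsf2 was at 146 and 189 FPKM in siCirbp and at 115 and 79.6 FPKM in siRbm3, with 83.5 and 94.8 FPKM in mock at 37 °C. Srsf1 was at 80.6 and 97.0 FPKM against 65.1 and 33.1 FPKM, and Srsf3 at 23.6 and 28.4 FPKM against 19.4 and 9.79 FPKM. For these 3 siRbm3 replicate 1 was above mock and replicate 2 below it.

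Factors of pre-mRNA 3′ end processing, the machinery that sets the polyadenylation site, were higher without overlap in 8 of 21 and lower in 1, with a median log2 difference of 0.12. Cpsf6, a subunit of cleavage factor I, was at 25.1 and 26.9 FPKM in siCirbp and at 20.7 and 10.3 FPKM in siRbm3. Rbbp6 was at 31.9 and 31.4 FPKM against 28.0 and 16.8 FPKM, and Pabpn1, the nuclear poly(A)-binding protein, at 73.2 and 59.2 FPKM against 46.5 and 51.9 FPKM. The 1 member lower was Sympk, the scaffold symplekin, at 32.8 and 32.0 FPKM against 35.0 and 48.7 FPKM. The median differences against each siRbm3 library were alike for this list, at 0.108 for replicate 1 and 0.105 for replicate 2.

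Among 12 measured members of the cold-inducible and cold-shock-domain list, which holds both siRNA targets, 5 were higher, Rbm3 among them, and 2 lower. The latter were Cirbp and Rtn3, a reticulon and not an RNA-binding protein of these families. Ybx1, a cold-shock-domain protein, was at 43.9 and 49.8 FPKM against 32.6 and 34.7 FPKM. Of 21 core clock genes, 4 were higher and 3 lower, with a median log2 difference of -0.06. The clock repressor Nr1d1 was at 17.2 and 13.2 FPKM against 19.7 and 44.3 FPKM, Bhlhe40 at 95.8 and 66.4 FPKM against 107 and 193 FPKM, and Timeless, which also acts at replication forks, at 8.85 and 13.1 FPKM against 6.01 and 4.78 FPKM. Cytosolic heat shock proteins had 7 of 17 higher and 0 lower, with a median of 0.06. In the small RNA silencing list Eif2c2 (Argonaute 2) was at 11.98 and 17.1 FPKM against 25.2 and 32.9 FPKM, with 2 of 15 members lower and 2 higher. Among cyclin D genes and CDK inhibitors, with 5 of 14 higher and 4 lower, the inhibitor Cdkn2b was at 65.8 and 63.3 FPKM against 112 and 136 FPKM. Acsl4, an acyl-CoA synthetase, was at 67.3 and 63.8 FPKM against 39.0 and 23.4 FPKM, in a fatty acid list with 2 of 23 higher and 3 lower. Acsl4 went against most of that list, whose median log2 difference was -0.13, with 18 members below 0 and 5 above. In the other 10 lists (p53 targets, interferon response, inflammatory genes, matrix proteases, cholesterol synthesis, respiratory chain, ribosomal proteins, lysosome, antioxidant response, and galectins with annexins) the medians ran from -0.17 for the lysosome to 0.07 for the antioxidant response. In these 10 lists, 0% (galectins with annexins) to 21.4% (interferon response and ribosomal proteins) were higher without overlap, against 20.9% of all genes. From 2.86% (respiratory chain) to 28.6% (p53 targets and cholesterol synthesis) were lower, against 15.6% of all genes. The matrix proteases had a median of 0.24 against siRbm3 replicate 1 and of -0.49 against replicate 2.

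**Figure D4:**
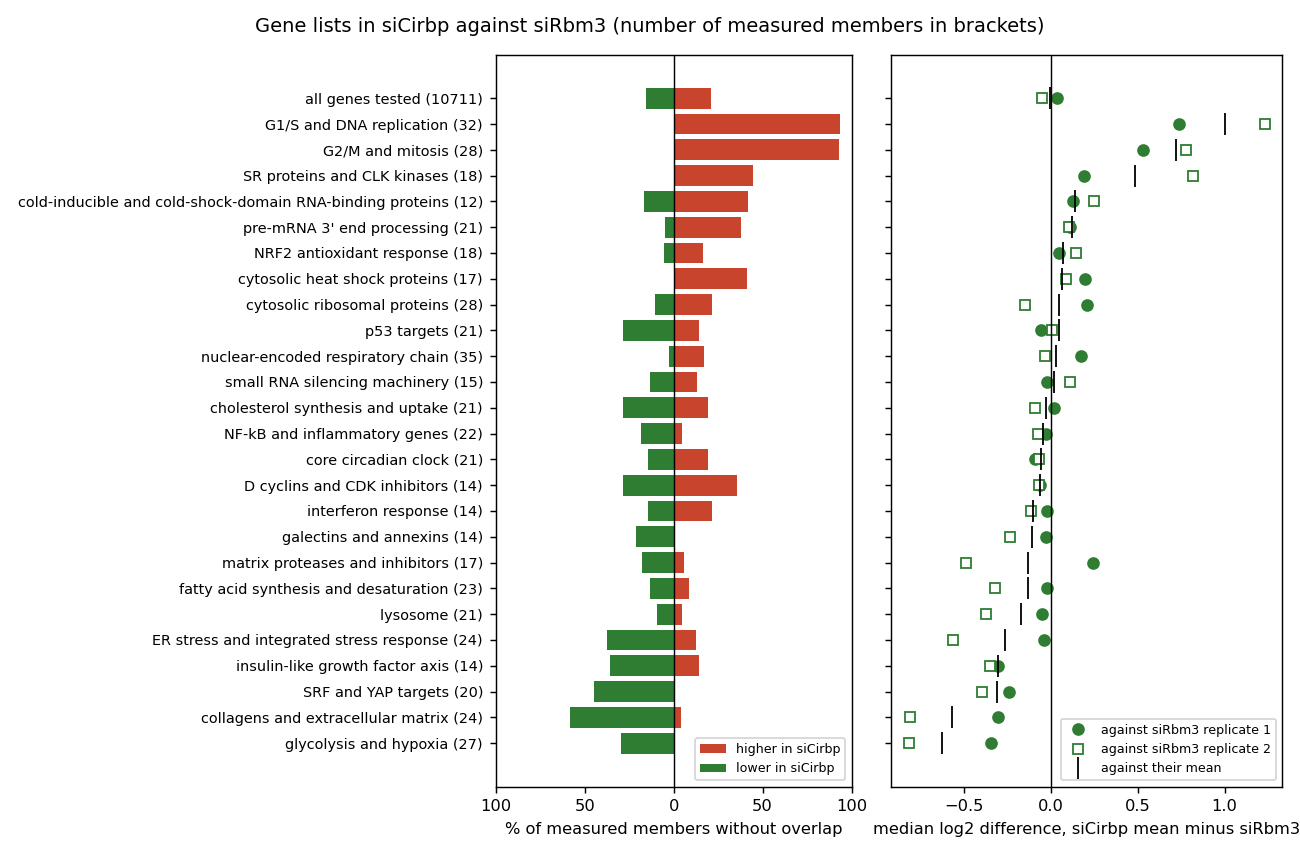
Left, the percentage of measured members of each list whose groups did not overlap, higher (red, to the right) or lower (green, to the left) in siCirbp. Right, the median log2 difference of siCirbp against siRbm3 replicate 1 (filled circles), replicate 2 (open squares) and their mean (bars), with all genes tested in the top row. The G1/S and G2/M lists are to the right of 0 against either replicate, with medians from 0.53 to 1.23.

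The genes with the largest differences inside each group are given next. Between the siRbm3 libraries, Sprr1a and Sprr1b, small proline-rich proteins of cornified epithelium, were at 22.0 and 4.95 FPKM in replicate 1 and at 137 and 36.3 FPKM in replicate 2. Mock cells at 37 °C held 176 and 191 FPKM of Sprr1a. Vwa1, a matrix protein, was at 7.47 FPKM in replicate 1 and 38.6 FPKM in replicate 2, Fam65b at 1.22 and 8.93 FPKM, and Shcbp1, a protein of dividing cells, at 17.3 and 4.18 FPKM. The RNA helicase Ddx3x was at 70.4 FPKM in replicate 1 and 17.5 FPKM in replicate 2, the splicing factor Hnrnph1 at 142 and 39.3 FPKM, the channel kinase Trpm7 at 31.7 and 7.69 FPKM, and the Ras GTPase-activating protein Rasa1 at 34.0 and 8.63 FPKM. For these 4 replicate 1 was within the range of the siCirbp libraries or just outside it, and replicate 2 was the lowest of the 8 RNA-seq libraries. Inside siCirbp, Lbp, the lipopolysaccharide-binding protein, was at 22.3 FPKM in replicate 1 and 0.353 FPKM in replicate 2, the secreted inhibitor Slpi at 40.0 and 4.90 FPKM, and Igfbp7 at 32.6 and 133 FPKM. Across genes, as a description, the siRbm3 difference (replicate 2 minus replicate 1) had a Spearman correlation of -0.29 with transcript length and the siCirbp difference one of 0.28, while the difference between the groups had one of -0.01.

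Alternative transcripts were compared as shares of their gene's FPKM. Over 2869 transcripts of 1310 genes, limma called 0 (0%), with a lowest adjusted p of 0.117 and 247 at an unadjusted p under 0.05. For Pfdn4, a prefoldin subunit with the lowest adjusted p, 1 transcript held 63.4% and 76.4% in siCirbp and was listed near 0 in siRbm3. The same transcript held from 48.2% to 91.8% in the mock libraries.

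Distal 3′ ends are transcripts that end farthest downstream in their gene, and their share was tested in 203 genes with a listed strand. Limma called 4 (1.97%), 3 with a higher distal share in siCirbp and 1 with a lower one. Groups did not overlap in 55 genes with a higher share in siCirbp (27.1%) and 25 with a lower one (12.3%), and the median difference was 1.46 percentage points. Inside the groups the median difference, replicate 2 minus replicate 1, was 1.21 points in siRbm3 and -1.71 points in siCirbp. No gene was called when either siCirbp library was left out, with the replicate block or with a pseudocount of 0.1, and without siRbm3 replicate 2 the calls were 3, of which 1 (Med14) was among these 4.

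Med14, a scaffold subunit of the Mediator complex (mm9 chrX:12252497-12339099, minus strand), had a distal share of 85.6% and 79.1% in siCirbp and of 62.8% and 65.5% in siRbm3. Mock cells had 79.1% and 70.1% at 37 °C, so both siRbm3 libraries were below the mock libraries and both siCirbp libraries at or above the higher of them. The distal end is 4373 nt beyond the other, and the difference in the log2 ratio of distal to other FPKM was 1.24 (SE 0.28, adjusted p = 0.0115 by limma with Benjamini-Hochberg adjustment).

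Fnbp1, a membrane-curving F-BAR protein, had 93.7% and 89.3% against 78.0% and 70.5%, and 67.1% and 68.5% in mock at 37 °C. The log2 ratio difference was 1.26 (SE 0.31, limma adjusted p = 0.0141). Its distal transcripts were nearly level, at 11.5 and 10.7 FPKM in siCirbp and 11.2 and 11.1 FPKM in siRbm3. The transcript ending 27029 nt before them was at 0.776 and 1.29 FPKM against 3.15 and 4.66 FPKM. Here siCirbp lay outside the mock range, and so did siRbm3 by less.

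Cdk12, the cyclin-dependent kinase that phosphorylates RNA polymerase II during elongation, had 75.5% and 70.1% against 57.7% and 49.5%. Mock cells had 53.6% and 57.3%, close to siRbm3, and the ends are 6836 nt apart. The log2 ratio difference was 1.05 (SE 0.29, limma adjusted p = 0.0379). Brcc3, a deubiquitinase of the DNA damage response, went the other way, with 76.5% and 70.6% in siCirbp, 84.6% and 90.4% in siRbm3 and 71.5% and 70.9% in mock (log2 ratio difference -1.10, SE 0.31, limma adjusted p = 0.0379). Its most distal transcript, of 1138 nt, ends 1700 nt beyond transcripts of 4307 and 4310 nt, so a distal end is not a longer mRNA in this gene.

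**Figure D5:**
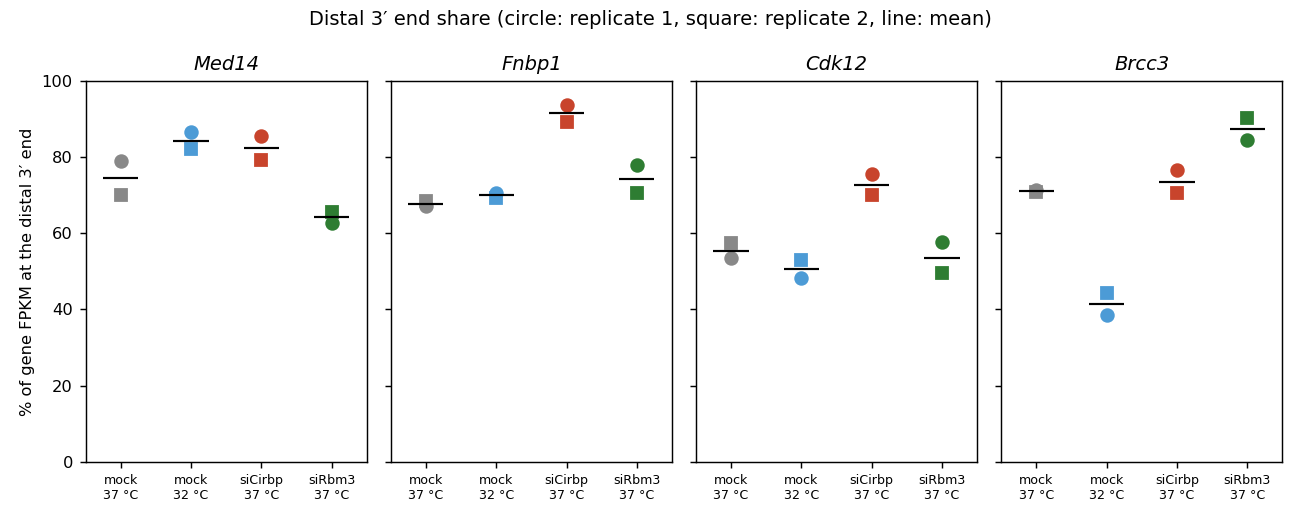
Percentage of the gene's FPKM in transcripts with the most distal 3′ end for the 4 genes called, in each RNA-seq library, with circles for replicate 1, squares for replicate 2 and a line at the mean of 2. The siCirbp points are above the siRbm3 points in Med14, Fnbp1 and Cdk12 and below them in Brcc3, where mock cells at 32 °C are lowest at 38.4% and 44.5%.

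The PAR-CLIP sites were set beside the gene differences, with sites counted inside the genomic span of a gene on its strand where that was known. Of 1941 Cirbp sites 1572 lay in a listed gene, and of 2118 Rbm3 sites 1704. The 548 tested genes with Cirbp sites only had a median log2 difference of 0.14, with 31.4% higher and 10.8% lower without overlap. The 344 genes with sites of both proteins had 0.16, with 33.4% and 8.14%. The 589 genes with Rbm3 sites only had -0.02, with 17.8% and 16.0%, and the 9230 without a site -0.02, with 20.0% and 16.2%. These groups of genes also differed in level and inside the siRbm3 group. Their median mean level was 23.5, 24.3, 16.8 and 12.8 FPKM in the same order. The median difference of siRbm3 replicate 2 minus replicate 1 was -0.20 for genes with Cirbp sites only and -0.27 for genes with both, against 0.08 for Rbm3 sites only and 0.12 for none. Against siRbm3 replicate 1 alone the medians for Cirbp sites only, both, Rbm3 sites only and none were 0.05, 0.05, 0.03 and 0.03, and against replicate 2 alone they were 0.23, 0.28, -0.03 and -0.08. The part of expression level and of siRbm3 replicate 2 in these values was not tested.

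Sites were counted for the 115 genes named by rule other than those of the transcript shares. Of these, 95 had no site of either protein, 9 had sites of both, 8 of Cirbp only and 3 of Rbm3 only. Over all 10711 tested genes these counts were 9230, 344, 548 and 589, so most genes had no site in either set. Srsf1 had 14 Cirbp and 8 Rbm3 sites, Ddx3x 10 and 4, Hnrnph1 6 and 2, Srsf2 4 and 3 and Cdk12 3 and 2. Smc4 had 1 Cirbp and 2 Rbm3 sites. Med14, Ccne2, Hells, Ybx1 and Acsl4 had 1 Cirbp site each and Cpsf6 had 2, with 0 of Rbm3. Trib3 had 2 and Pabpn1 had 1 Rbm3 site, with 0 of Cirbp. Of the 10 genes with the largest differences inside siRbm3, Ddx3x and Hnrnph1 had sites and the other 8 had none.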

How the data were processed

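Polyadenylated RNA of 8 mouse embryonic fibroblast libraries was sequenced as 76-base single-end reads, per the labels' protocols. The submitters' processing notes name TopHat 1.1.2 and the mm9 build. The FPKM of 28702 transcripts are the authors' values, unchanged, from files laid out like Cufflinks output, and the Cufflinks version and annotation are not given in the sources used here. The coverage signal, as deposited by the authors, is mean read depth per base, and its ratio to FPKM gave the mapped fragments, 25.1 to 28.2 M a library. At 75 bases of coverage a read and a length reduced by 208 nt, 91.4% to 92.0% of values under 100 reads (genes of 1 transcript of 500 nt or more) were whole reads within 0.05. Transcript lengths are in nt, per the file headers. PAR-CLIP sites carry a score whose scale the authors do not state, and it was not used. The caller is not given in the sources used here.

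FPKM were summed per gene. Limma 3.58.1 in R 4.3.3 was fitted to log2(FPKM + 1) of the 4 siRNA libraries with 2 group means and empirical Bayes moderation (trend and robust options). Two-sided p-values were adjusted by Benjamini-Hochberg over all features, and 0.05 was the threshold. Fold changes are on the log2(FPKM + 1) scale, which understates those of low genes. Of the tested genes 65 had a failed transcript estimate in at least 1 of the 4 libraries and 7 lay on more than 1 chromosome. Shares were tested as log2 ratios with a pseudocount of 1, in genes with a mean of at least 5 FPKM. Strand came from a RefSeq promoter table (GRCm38.p6) by symbol for 8619 of 10711 genes. The fit was tested on simulated data.

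Named genes were Cirbp, Rbm3, the 12 widest gaps in each direction, up to 3 members of each list by unadjusted p, the called shares (for transcript shares, where none was called, the 4 smallest p in each direction) and the 5 largest differences in each direction inside each group. The compared groups and the gene lists were chosen with earlier results of these data known. Alternatives were the pseudocount, the level filter, the libraries in the fit, scaling, length trend, transcript sums, a replicate block and leaving out each library. Libraries with the same number showed a correlation of residuals of -0.26, so the numbers were not taken as pairs.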

Additional observations from a re-analysis of the deposited data

How the results depend on the processing

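Against 0 genes called with all 4 libraries, the replicate block, which pairs libraries of the same number, called 1 (Hmgn5, limma adjusted p = 0.0134). Without the length limit 7 were called, all small RNA genes under 200 nt listed at 0 in 1 group, and leaving out each library gave 0 to 1 (Apoc1, without siCirbp replicate 2). The count of genes 2-fold higher without overlap (189) was 307 with a pseudocount of 0.1 and 45 to 725 with 1 library left out, and the count lower (52) was 85 and 15 to 313. Without siCirbp replicate 1 the counts were 350 and 237, and without siCirbp replicate 2 they were 175 and 103. The distal 3′ end calls (4) were 0 with a pseudocount of 0.1, 0 with the replicate block, 9 at a mean of at least 10 FPKM and 0 to 13 with 1 library left out. The crossed pairing, added after seeing the data, called 0 genes and 11 distal ends. The block changed no other call, and the cause of these changes was not tested. Cirbp and Rbm3 kept their direction under every alternative and were not called under any. With all 8 libraries in the fit, genes at an unadjusted p under 0.05 were 1701 rather than 630, and 846 with a weight for each group. A lone library left in a group was assumed to vary like those of the other group. What depth limits beside the spread of 2 libraries a group was not tested (25.1 to 28.2 M fragments a library).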
